A study of Arabidopsis thaliana with 7 samples.

Results

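The 39 histone genes of *Arabidopsis thaliana* described here encode linker histone H1 and the core histones H2A, H2B, H3 and H4, and they are 39 of the 21184 genes in the deposited table. They were selected by locus identifier as a module that an earlier reading of the same comparison had drawn attention to, so their levels in the mutant and the wild type are given as a description, with no test over the group. Messenger RNA was sequenced from whole seedlings of 2 lines, the wild type Col-0 (4 libraries) and tt4-11 (3 libraries, replicates 2 to 4), a null line for chalcone synthase, the enzyme that opens flavonoid synthesis. All seedlings of both lines were 5 days old, grown at 22 °C on 2% sucrose under continuous light of about 100 µE, conditions that favour flavonoid production. The labels do not say whether the libraries came from separate plates, so every SE and p measures only the spread between these samples. Whole seedlings were used, and in such bulk RNA fewer cells of a type and less RNA per cell cannot be told apart.

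Histones package DNA into nucleosomes, in which an octamer of H2A, H2B, H3 and H4 is wrapped by DNA and linker histone H1 binds where the DNA enters and leaves. Replication-type histones (H2A, H2B, H3.1 and H4) are made mainly while DNA is copied, whereas variants such as H3.3, H2A.X, H2A.W and H2A.Z are deposited for particular tasks and, for H3.3 and H2A.Z, also outside S phase. In plants, unlike animals, replication-type histone mRNAs carry polyA tails, so polyA-selected libraries measure them. In a young seedling their transcripts are known mainly from the dividing cells of the root and shoot meristems.

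Levels are scaled reads, which are the deposited values, read counts scaled by 1 factor per library, summed here over the transcript models of a gene. The libraries hold 2021368 to 2205449 reads in the table. The mutation was visible in them: TT4 (AT5G13930), the chalcone synthase gene, stood at 3003, 2571, 3148 and 2464 scaled reads in Col-0 and at 58.0, 96.7 and 54.9 in tt4-11, a log2 change of -5.34 ± 0.16 (SE) with an adjusted p of 2.99e-12 by limma. A gene is called here when limma, fitted over all 13301 genes with enough reads, gives a Benjamini-Hochberg adjusted p under 0.05, two-sided. Changes are on the scale of log2(scaled reads + 1), tt4-11 minus Col-0, which understates the change of low genes.

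The 39 histone genes together stood at 6669, 6094, 6288 and 6627 scaled reads in the Col-0 libraries and at 4872, 4543 and 4608 in tt4-11. Every tt4-11 library was below every Col-0 library, and the tt4-11 mean was 72.8% of the Col-0 mean. As a share of all reads in the table, histone transcripts took 0.302% to 0.328% in Col-0 and 0.223% to 0.242% in tt4-11. The 95% Wilson intervals, which cover counting error only, reached down to 0.295% in Col-0 and up to 0.249% in tt4-11.

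Of the 39 genes, 34 had enough reads to be tested, and 17 of these were called lower in tt4-11, where 6.55% of all tested genes were called lower. None of the 34 was called higher by limma, edgeR or DESeq2 (0 genes), where limma called 7.07% of all tested genes higher. At an unadjusted limma p under 0.05, 22 histone genes were lower and 0 higher. No share over all genes is given for that threshold, here or for the classes and lists below. Counts without adjustment therefore cannot be set against a background. Lower histone genes numbered 17 by edgeR and 16 by DESeq2. Over all genes tested, edgeR called 1871 and DESeq2 1461 in either direction. All tt4-11 libraries lay below all Col-0 libraries in 18 histone genes, against 12.9% of all tested genes, and in 0 histone genes did they all lie above, against 13.7%. The fitted change was below 0 for 32 of the 34 genes, with a median of -0.44 and a range from -0.97 to 0.15; over all tested genes 51.2% were below 0 and the median was -0.01. Because the genes were chosen with this contrast in view, nothing is read from how these shares differ. In the authors' deposited table, 13 of the 41 transcript models of histone genes had an adjusted p under 0.05 and a lower mean in tt4-11, and 0 a higher one; of all 23051 models, 2.89% passed that threshold with a lower mean.

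**Figure D1:**
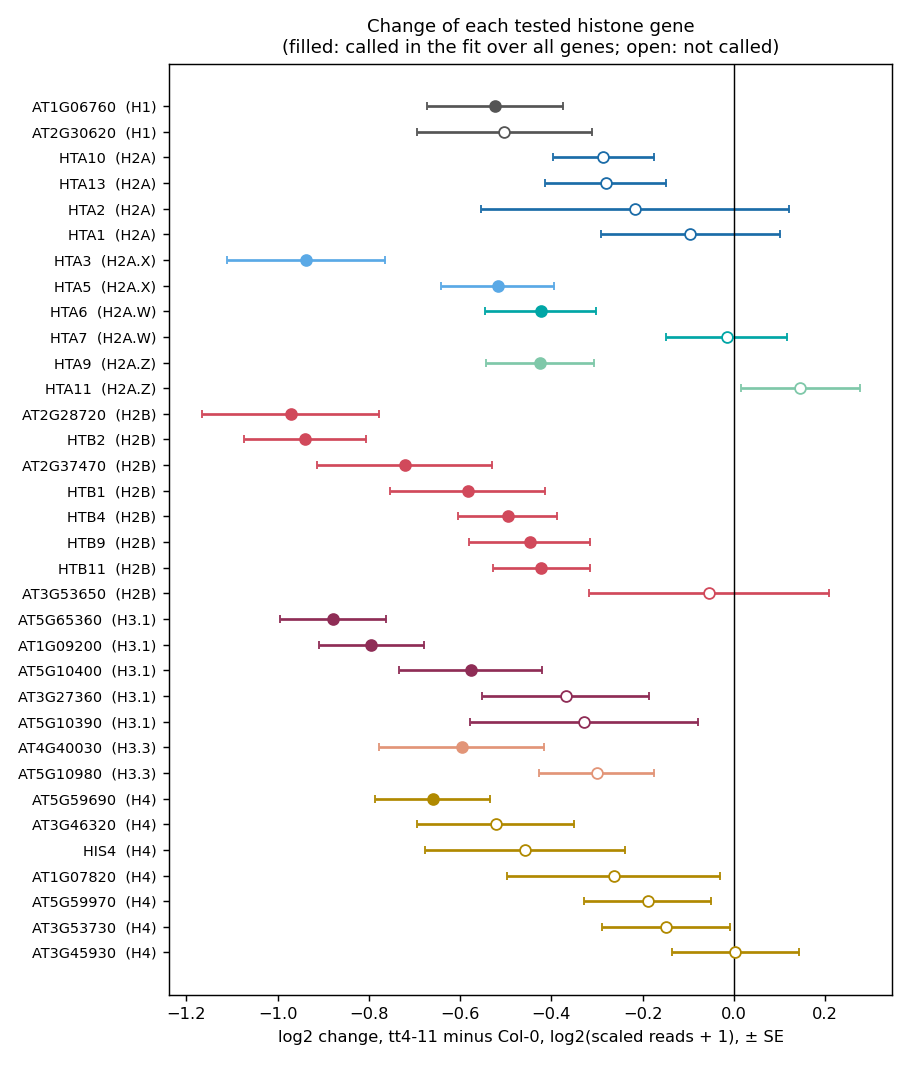
Log2 change of each of the 34 tested histone genes (points, ± SE), tt4-11 minus Col-0, grouped by class and ordered within it. Filled points are the 17 called genes, all of which lie left of 0, while HTA11 at 0.15 and AT3G45930 at 0.00 are the members not below 0.

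Leaving out single libraries mattered for the number called. Without tt4-11 replicate 3, 8 histone genes were called lower, and without tt4-11 replicate 4, 9 were. Over all tested genes, calls in either direction went from 1811 to 933 and 896 in these fits. With the trend of change on transcript length removed, described further on, 7 histone genes were called lower, beside 1294 genes called in either direction. All 17 kept a negative change in every alternative tried.

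The H3 genes showed both the highest single level and the lowest class sum relative to Col-0. H3.1 is the replication-type H3, loaded onto newly copied DNA, and its 5 genes have no intron. Summed, they stood at 1052, 869, 920 and 996 scaled reads in Col-0 and at 612, 538 and 548 in tt4-11, which is 59.0% of the Col-0 mean, with no overlap between the groups. The 5 genes encode one and the same protein, as all 10 pairs of annotated proteins were identical, but their coding sequences of 411 bases were only 80.3% to 89.5% identical. The first 60 coding bases are shown for all 5 genes because they let a reader see how reads tell these copies apart; capitals mark the 17 positions at which the 5 differ (RefSeq annotation of TAIR10.1, coding strand).
AT5G65360: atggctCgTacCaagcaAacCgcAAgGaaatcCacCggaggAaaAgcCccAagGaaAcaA
AT1G09200: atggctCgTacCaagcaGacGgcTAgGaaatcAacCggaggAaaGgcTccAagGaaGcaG
AT5G10400: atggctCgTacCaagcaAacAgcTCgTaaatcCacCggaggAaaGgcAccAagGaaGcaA
AT3G27360: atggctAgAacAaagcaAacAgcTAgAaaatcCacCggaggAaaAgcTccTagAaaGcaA
AT5G10390: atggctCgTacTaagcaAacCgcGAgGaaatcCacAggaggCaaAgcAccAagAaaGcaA

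AT5G65360 (TAIR10.1, minus strand, chr5:26119859-26120581) was the highest histone gene per length in Col-0, with 600.1 ± 78.9 scaled reads per kb (SD, n = 4). It stood at 495, 362, 418 and 460 scaled reads in Col-0 and at 237, 236 and 229 in tt4-11, a log2 change of -0.88 ± 0.12 (SE) that was called. The 3 tt4-11 libraries were nearly equal and all below the lowest Col-0 library. AT1G09200 (chr1:2971571-2972334) had 369, 314, 309 and 310 scaled reads in Col-0 and 209, 176 and 177 in tt4-11, a called change of -0.79 ± 0.11. Its Col-0 libraries were close together apart from replicate 1, and again the groups did not overlap. AT5G10400 had 103, 89.4, 73.8 and 94.0 against 66.4, 57.1 and 55.9, a called change of -0.58 ± 0.16 without overlap.

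The other H3.1 genes were not called. AT5G10390, which lies 578 bases from AT5G10400 on the same strand, ranged from 23.9 to 57.0 scaled reads in Col-0 and stood at 33.7, 28.5 and 29.9 in tt4-11, with a change of -0.33 ± 0.25. Its Col-0 libraries enclosed all the tt4-11 values. AT3G27360 had a change of -0.37 ± 0.18, and 31.2% of the 100-base windows of its transcript also lie in the overlapping gene AT3G27380, so its reads could have been divided between them. AT5G65360 and AT1G09200 together held 80.1% of the summed H3.1 level per kb in Col-0.

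H3.3, the replacement variant associated with active genes, is encoded by 3 genes that each carry introns. Their proteins were also identical to one another, and each differed from H3.1 by 4 residues in all 15 pairs, with coding identity between 74.0% and 80.3%. Coding bases 61 to 150 of the highest H3.1 and the highest H3.3 gene are printed because part of that difference lies there; capitals mark the 19 positions at which the pair differs.
AT5G65360: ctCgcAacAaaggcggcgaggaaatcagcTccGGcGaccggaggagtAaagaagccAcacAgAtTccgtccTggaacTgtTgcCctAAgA
AT5G10980: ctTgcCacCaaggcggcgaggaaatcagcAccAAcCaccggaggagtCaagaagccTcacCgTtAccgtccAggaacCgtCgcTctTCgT

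AT5G10980, the highest H3.3 gene, had 183, 212, 226 and 209 scaled reads in Col-0 and 197, 156 and 155 in tt4-11, a change of -0.30 ± 0.13 that was not called. Replicate 2 of tt4-11 lay within the Col-0 range, and the other 2 libraries below it. AT4G40030 had 102, 90.4, 81.5 and 83.0 against 80.5, 51.6 and 48.2, a change of -0.60 ± 0.18 that limma and edgeR called and DESeq2 did not. Here too tt4-11 replicate 2 was close to Col-0, only just below its lowest library. AT4G40040, whose annotated end lies 43 bases from AT4G40030, had 5 reads in all Col-0 libraries together and 1 in tt4-11, too few to test.

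H3.1 transcripts were lower relative to H3.3 transcripts in tt4-11. Within a library, the summed H3.1 level per kb over that of H3.3 was 4.21, 3.23, 3.39 and 3.88 in Col-0 and 2.50, 2.93 and 3.02 in tt4-11, that is 3.68 ± 0.45 against 2.82 ± 0.28 (SD, n = 4 and 3). All tt4-11 ratios lay below all Col-0 ratios, although the highest tt4-11 and the lowest Col-0 ratio are only 3.02 and 3.23. Only 1 of the 3 H3.3 genes has a single annotated model, so the ratio itself is not absolute.

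H2B, the partner of H2A in the nucleosome, had the most called members. Of its 8 genes, all without introns, 7 were called lower, and the summed level was 1624, 1766, 1711 and 1811 scaled reads in Col-0 against 1318, 1173 and 1108 in tt4-11, which is 69.5% of the Col-0 mean. The groups did not overlap. HTB9 (AT3G45980, chr3:16897287-16898013) was the highest per length, at 552 ± 71.6 scaled reads per kb (SD, n = 4), yet its 327, 431, 443 and 404 scaled reads in Col-0 overlapped the 354, 260 and 271 in tt4-11. Its change of -0.45 ± 0.13 was called, and it is the called histone gene whose groups overlap. HTB4 had 575, 601, 547 and 649 scaled reads in Col-0 against 463, 432 and 369, a called change of -0.50 ± 0.11. HTB11 had 333, 337, 314 and 375 against 256, 262 and 241, a called change of -0.42 ± 0.11. These 3 genes hold the bulk of H2B reads, and in HTB4 and HTB11 all tt4-11 libraries were below Col-0.

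The larger changes were among the less abundant H2B genes. AT2G28720 (chr2:12326808-12327808) had 48.7, 49.98, 51.4 and 65.0 scaled reads in Col-0 and 29.0, 22.1 and 29.9 in tt4-11, a called change of -0.97 ± 0.19 and the largest of the 34 histone genes. HTB2 had 161, 155, 151 and 126 against 79.5, 79.2 and 71.3, a called change of -0.94 ± 0.13. In both, the tt4-11 libraries were close together and well under the Col-0 libraries. AT2G37470 had 66.9, 57.7, 103 and 84.0 against 45.9, 42.4 and 49.1, a called change of -0.72 ± 0.19. HTB1 had 97.4, 111, 73.8 and 87.0 against 73.0, 53.4 and 56.8, a called change of -0.58 ± 0.17, with its highest tt4-11 library just under its lowest Col-0 library. AT3G53650, the lowest H2B gene, did not follow: it had 14.3, 24.0, 27.2 and 21.0 against 17.8, 22.1 and 21.2, and its change of -0.05 ± 0.26 was not called.

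**Figure D2:**
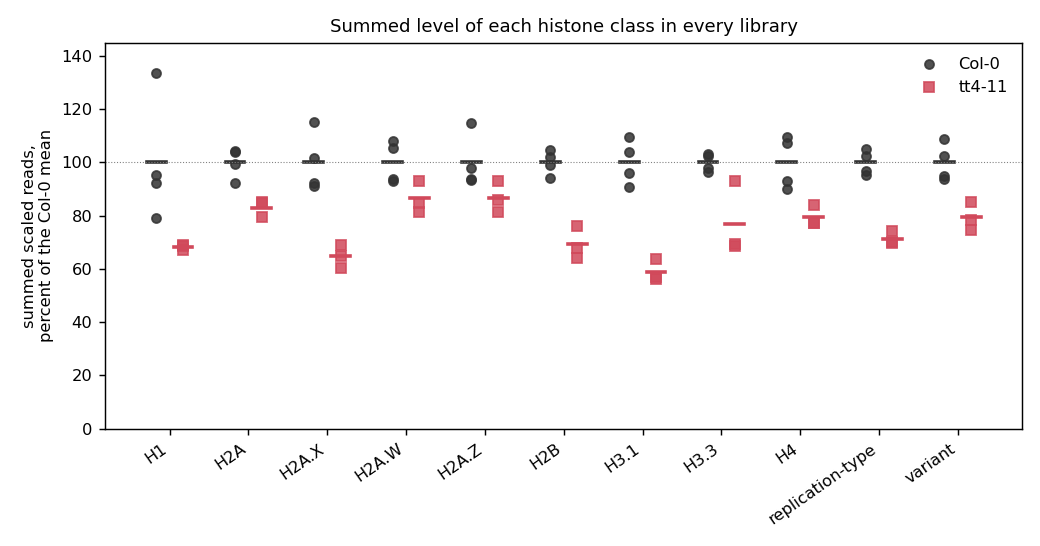
Summed scaled reads of each histone class in every library, in percent of the Col-0 mean of that class (circles, 4 Col-0 libraries; squares, 3 tt4-11 libraries; bars, group means). The means of tt4-11 run from 59.0% for H3.1 to 86.8% for H2A.Z, and in H2A.W the groups overlap.

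The replication-type H2A genes, whose products pair with H2B, had a smaller difference than their partner. Their sum was 590, 524, 564 and 592 scaled reads in Col-0 and 450, 482 and 482 in tt4-11, which is 83.1% of the Col-0 mean, without overlap, and 0 of the 4 genes was called lower or higher by limma, edgeR or DESeq2. At an unadjusted limma p under 0.05, HTA10 and HTA13 were lower. HTA10 (AT1G51060), the highest, had 365, 298, 332 and 328 against 263, 296 and 254, a change of -0.29 ± 0.11 with all tt4-11 libraries below, though replicate 3 only just. HTA13 had a change of -0.28 ± 0.13 and HTA2 one of -0.22 ± 0.34. HTA1 (AT5G54640), also known as RAT5 from its part in transformation by Agrobacterium, had 73.6, 47.1, 44.6 and 51.0 against 44.0, 47.9 and 57.8, a change of -0.10 ± 0.20. Its high Col-0 replicate 1 set that sign, and without it the change was 0.06.

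Among the H2A variants, H2A.X stood lowest relative to Col-0. H2A.X carries the serine that is phosphorylated at DNA breaks, and both of its genes were called. HTA3 (AT1G54690) had 85.01, 99.0, 93.2 and 98.0 scaled reads in Col-0 and 64.6, 40.5 and 43.3 in tt4-11, a change of -0.94 ± 0.17. HTA5 (AT1G08880) had 231, 214, 255 and 297 against 172, 167 and 179, a change of -0.52 ± 0.12. In neither did the groups overlap, and the summed H2A.X level in tt4-11 was 64.7% of Col-0.

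H2A.W, the variant of plant heterochromatin, and H2A.Z, the variant found at gene starts, each held a called gene and a tested gene that was not called. HTA6, for H2A.W, had 194, 159, 193 and 183 scaled reads in Col-0 and 140, 137 and 128 in tt4-11, a called change of -0.42 ± 0.12. HTA7, of the same class and a like level, had 151, 188, 207 and 208 against 204, 178 and 174, a change of -0.02 ± 0.13 with full overlap. The H2A.W sum was 86.5% of Col-0 and its groups overlapped.

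HTA9, for H2A.Z, had 241, 249, 270 and 299 scaled reads in Col-0 and 190, 181 and 219 in tt4-11, a called change of -0.43 ± 0.12 without overlap. HTA11, its close relative, had 144, 141, 137 and 184 against 168, 158 and 173, and its change of 0.15 ± 0.13 was the highest of all 34, not called. All 3 tt4-11 libraries of HTA11 exceeded the other 3 Col-0 libraries but not Col-0 replicate 4. HTA12 of H2A.W and HTA8 of H2A.Z were too low to test: HTA12 had 2 reads over Col-0 and 1 over tt4-11, and HTA8 had 46 and 24.

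H4, which pairs with every H3, is encoded by 8 genes whose annotated proteins were identical in all 28 pairs and whose coding sequences of 312 bases were 78.9% to 98.1% identical. Their sum was 1143, 940, 969 and 1120 scaled reads in Col-0 and 807, 806 and 874 in tt4-11, which is 79.5% of Col-0, without overlap. AT5G59690 (chr5:24051474-24052218) was the single called H4 gene of 7 tested, with 177, 200, 189 and 180 against 103, 116 and 136 and a change of -0.66 ± 0.13. HIS4 (AT2G28740), the highest per length, had 381, 159, 173 and 244 against 147, 177 and 168, a change of -0.46 ± 0.22 that was -0.21 without Col-0 replicate 1. AT3G45930 had 161, 149, 119 and 168 against 140, 140 and 167, a change of 0.00 ± 0.14. AT3G45930 shares 11.1% of its 100-base windows with AT3G46320, and AT1G07660 shares 6.10% with AT1G07820, so reads of these pairs could have been exchanged.

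The remaining H4 genes had changes from -0.52 ± 0.17 (AT3G46320) to -0.15 ± 0.14 (AT3G53730), none called, and AT1G07660 was too low to test. Relative to H3.1 transcripts, H4 transcripts were higher in tt4-11. Within a library, H4 over H3.1 per kb was 1.04, 1.02, 0.964 and 1.05 in Col-0 and 1.22, 1.39 and 1.49 in tt4-11, that is 1.02 ± 0.04 against 1.37 ± 0.13 (SD, n = 4 and 3). All tt4-11 ratios were above all Col-0 ratios.

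Of the reads that the table holds for linker histone H1, most belong to AT1G06760 (chr1:2076504-2077767), at 90.5% of the summed H1 level per kb in Col-0. The other 2 H1 genes have 2 annotated models each, of which the table holds 1, so this is not a share of H1 transcripts in the seedling. It had 824, 559, 529 and 462 scaled reads in Col-0 and 404, 408 and 396 in tt4-11, a called change of -0.52 ± 0.15. The Col-0 libraries were spread widely and the tt4-11 libraries hardly at all, with no overlap. Without Col-0 replicate 1 the change of AT1G06760 was -0.35 and was still called. AT2G30620 had 86.0, 66.3, 120 and 78.0 against 51.5, 59.8 and 70.3, a change of -0.50 ± 0.19 that was not called and whose groups overlap. HIS1-3, known as a drought-induced linker histone, had 4 reads over Col-0 and 7 over tt4-11 and was not tested.

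Replication-type histones and variants were compared by their sums. The 25 replication-type genes stood at 4409, 4098, 4163 and 4519 scaled reads in Col-0 and at 3187, 2999 and 3012 in tt4-11, 71.3% of Col-0. The 11 variant genes stood at 1350, 1367, 1475 and 1568 against 1227, 1077 and 1126, 79.4% of Col-0. Neither pair of groups overlapped. Called lower were 11 of 24 tested replication-type genes and 5 of 8 tested variants, beside 6.55% of all tested genes. With the length trend removed, described further on, HTA3 was the only variant among the 7 histone genes still called, beside 3.77% of all genes. Within a library, the replication-type sum per kb was 3.22 ± 0.22 times the variant sum in Col-0 and 2.89 ± 0.10 times in tt4-11 (SD, n = 4 and 3). All tt4-11 ratios were below all Col-0 ratios, the nearest being 2.98 and 3.03. The sums and the single genes differ in this respect: the median change of the tested genes was -0.43 for replication-type genes and -0.42 for variants, so the contrast in sums is not seen in the medians. Of the 11 variants, 6 have 1 annotated model, and the level of the others is not absolute. For H2A alone the ratio of replication-type to variant genes overlapped between the lines, with 0.573 ± 0.038 in Col-0 and 0.595 ± 0.047 in tt4-11.

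Levels in Col-0 ran over a wide range per length. After AT5G65360 came HTB9 at 552, AT1G06760 at 512, HTB4 at 461, HTB11 at 455, AT1G09200 at 426 and HTA10 at 394 scaled reads per kb. Neighbours in this order lie within each other's spread: the SD over 4 libraries was 78.9 for AT5G65360, 71.6 for HTB9 and 137 for AT1G06760. The lowest was HTA12 at 0.654. A feature of the deposited table bears on the low end: the 28 histone genes with 1 annotated transcript model had a median of 221 scaled reads per kb, and the 11 with more had a median of 26.8. Of the first, all 28 were tested and 16 called lower, and of the second, 6 were tested and 1 was called. Levels of the 11 are therefore not read as absolute.

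**Figure D3:**
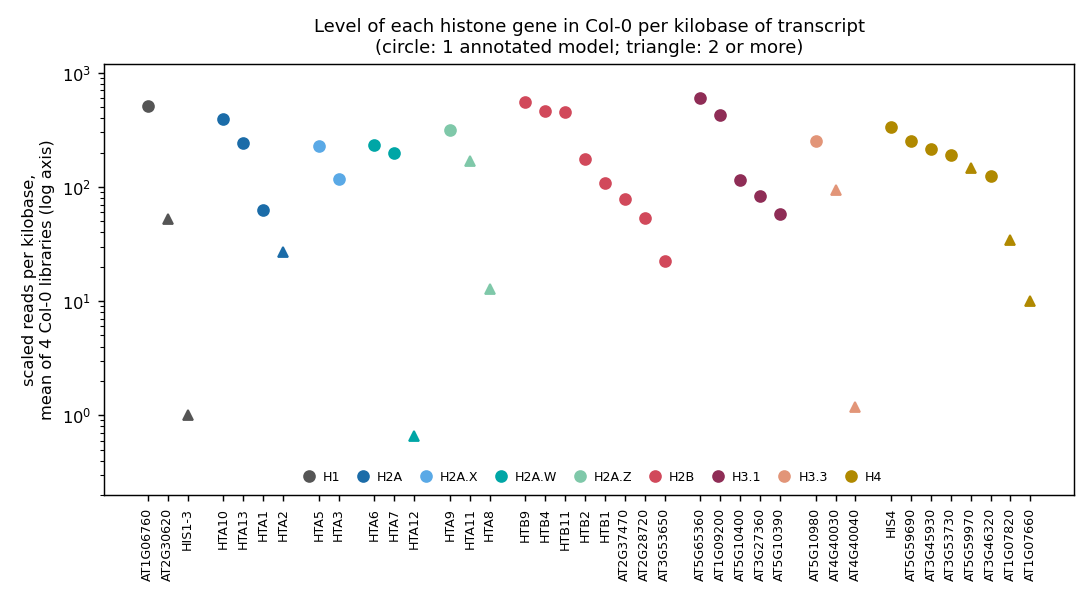
Mean level of each histone gene in the 4 Col-0 libraries, in scaled reads per kb of transcript on a log axis, by class. Circles are genes with 1 annotated model and triangles those with more; the low points, such as HTA12 at 0.654, are triangles.

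Gene structure was read from the annotation, independently of the expression contrast. Of the 39, 20 have no intron (51.3%), namely all 8 H2B, all 5 H3.1 and 7 of 8 H4 genes, whereas all 11 variant genes have introns; over the 20731 genes found in the annotation, 18.0% have none. Their median transcript length is 842 bases, against 1656 over all annotated genes. The members lie on all 5 chromosomes, 9 on chromosome 1, 6 on 2, 9 on 3, 3 on 4 and 12 on 5. Some are close neighbours, such as AT5G10390 with AT5G10400, and AT2G28720 (H2B) with HIS4 (H4) at 1537 bases. Antisense genes overlap 7 of them (AT1G06760, AT2G30620, HTA13, HTA3, HTA12, HTA9 and HTB9). The libraries were made with a stranded kit, but whether the counting used strand is not given in the sources used here.

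Transcript length moved with the change over the whole table. Over 13161 tested genes with an annotated length, Spearman's rho of the change against length was 0.285, given as a description across genes, which are not independent and share the same 7 libraries. The 5748 tested genes between 644 and 1666 bases, the range of the tested histone genes, had a median change of -0.13, and 10.9% of them were called lower. The trend of the change on length was fitted over all tested genes with an annotated length and subtracted from the tt4-11 libraries only. After that step, 7 of the 34 histone genes were still called lower, beside 3.77% of all genes. Of the 34, 28 had a negative change, and the median was -0.25. The 7 were AT5G65360, AT1G09200, HTB2, HTB4, AT2G28720, HTA3 and AT5G59690. With GC content also taken out, 8 were called and the median was -0.29. For the other 10 called genes the call thus depended on this step.

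**Figure D4:**
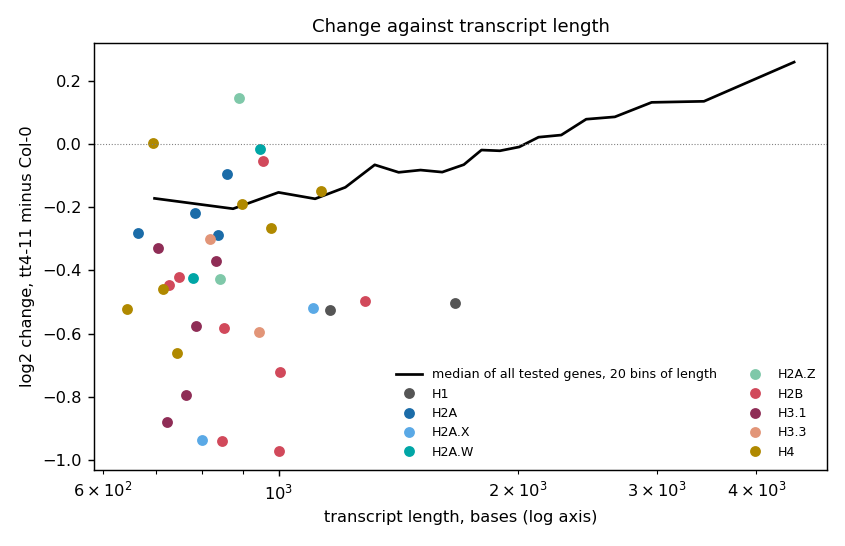
Log2 change, tt4-11 minus Col-0, against transcript length in bases (log axis) for the 34 tested histone genes, coloured by class, with the median of all tested genes in 20 bins of length (line). The line rises from -0.17 in the shortest bin to 0.26 in the longest, and most histone genes lie under it.

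The promoters of plant histone genes are known for an octamer motif, CGCGGATC, and a hexamer, ACGTCA. In the 250 bases before the annotated transcript start, on both strands, the octamer was found in 10 of 39 histone genes (25.6%) and in 30 of 20730 genes in all (0.145%). The hexamer was found in 10 histone genes (25.6%), of which 7 were H2B, 2 H3.1 and 1 H3.3 genes, beside 8.10% of all genes. The matches of the motifs overlapped in 0 histone genes, 19 held one or the other, and 1 gene, AT5G10400, held both. The windows of the highest H2A, H2B, H3.1 and H3.3 genes and of the called H4 gene are shown 5′ to 3′ on the gene's strand because they carry these motifs in different arrangement; capitals are the octamer, the hexamer or their reverse complements (TAIR10.1: HTA10, plus, chr1:18926561-18926810; HTB9, minus, chr3:16898014-16898263; AT5G65360, minus, chr5:26120582-26120831; AT5G59690, plus, chr5:24051224-24051473; AT5G10980, minus, chr5:3473571-3473820).
HTA10: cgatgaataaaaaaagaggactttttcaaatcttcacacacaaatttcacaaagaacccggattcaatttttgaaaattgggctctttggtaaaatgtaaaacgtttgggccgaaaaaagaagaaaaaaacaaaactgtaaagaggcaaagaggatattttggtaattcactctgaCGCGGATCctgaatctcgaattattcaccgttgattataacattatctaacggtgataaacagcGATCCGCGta
HTB9: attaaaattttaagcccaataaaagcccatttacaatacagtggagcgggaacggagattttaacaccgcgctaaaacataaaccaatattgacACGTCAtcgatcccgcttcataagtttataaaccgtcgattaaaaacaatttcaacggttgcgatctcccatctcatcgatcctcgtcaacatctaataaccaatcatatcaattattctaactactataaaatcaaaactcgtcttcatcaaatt
AT5G65360: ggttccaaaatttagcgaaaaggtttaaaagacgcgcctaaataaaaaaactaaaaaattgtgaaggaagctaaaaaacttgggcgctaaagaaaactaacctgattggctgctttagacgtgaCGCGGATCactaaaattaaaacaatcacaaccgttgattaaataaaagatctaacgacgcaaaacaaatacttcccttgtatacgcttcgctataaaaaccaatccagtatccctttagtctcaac
AT5G59690: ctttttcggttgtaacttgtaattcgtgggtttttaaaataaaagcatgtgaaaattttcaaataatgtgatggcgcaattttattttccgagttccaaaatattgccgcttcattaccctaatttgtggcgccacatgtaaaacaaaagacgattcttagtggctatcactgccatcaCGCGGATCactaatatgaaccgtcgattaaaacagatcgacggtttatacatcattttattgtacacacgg
AT5G10980: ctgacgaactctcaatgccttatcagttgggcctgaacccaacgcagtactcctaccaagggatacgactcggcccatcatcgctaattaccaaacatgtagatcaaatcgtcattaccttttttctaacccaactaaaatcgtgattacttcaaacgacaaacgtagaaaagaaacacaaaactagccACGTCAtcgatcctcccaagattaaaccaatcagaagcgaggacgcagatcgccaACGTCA

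HTA10 has the octamer on both strands, AT5G65360 and AT5G59690 have it once, HTB9 has the hexamer once and AT5G10980 has the hexamer at 2 places. Tested histone genes with an octamer (8) had a median change of -0.55, ranging from -0.88 to -0.28, and 6 were called. Those without (26) had a median of -0.42, ranging from -0.97 to 0.15, and 11 were called. Over all tested genes 6.55% were called lower. Among replication-type genes alone, 4 of 6 with an octamer were called (median -0.62), and 7 of 18 without (median -0.40). The ranges of the genes with and without an octamer overlap. The H2B genes with the largest changes, HTB2 and AT2G28720, hold the hexamer and no octamer. So does AT3G53650, with a change of -0.05, whereas HTB4, called at -0.50, holds neither. Outside the histone genes, 20 genes hold the octamer, 10 of which were tested. RPL24A, a ribosomal protein gene, fell by 0.65 ± 0.14 on the log2 scale (adjusted p = 0.00668 by limma), and NSP5, a nitrile-specifier protein gene, fell by 0.47 ± 0.14 (adjusted p = 0.0374 by limma). Called lower were thus 2 of the 10, beside 6.55% of all tested genes. None of the 10 was called higher by limma (0 genes), beside 7.07% of all tested genes. Of the 10, 7 were below 0 and their median was -0.23, beside 51.2% and -0.01 over all tested genes.

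Genes that act beside histones during DNA copying were read from a list. Of 28 replication and S phase genes, 22 were tested, and limma called 1 lower and 1 higher, beside 6.55% and 7.07% of all tested genes. At an unadjusted limma p under 0.05, 4 were lower and 1 higher, again with no share over all genes to set beside them. All tt4-11 libraries lay below all Col-0 libraries in 4 and above them in 1, against 12.9% and 13.7% of all tested genes. The median change was 0.01 beside -0.01 for all tested genes. PCNA1, a sliding clamp of DNA polymerases, fell from 78.4 ± 4.8 to 52.2 ± 6.4 scaled reads (SD, n = 4 and 3; log2 change -0.58 ± 0.15, adjusted p = 0.0201 by limma), with all tt4-11 libraries below. TIL1, the catalytic subunit of DNA polymerase epsilon, rose from 119 to 165 scaled reads (log2 change 0.46 ± 0.13, adjusted p = 0.0237 by limma). Without tt4-11 replicate 3 or 4, or without Col-0 replicate 3, neither was called. DESeq2 called 0 lower and 1 higher in this list, and with the length trend removed 1 was lower and 0 were higher.

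Other members of that list were not called. PCNA2, the second clamp gene, had a change of -0.46 ± 0.15 (adjusted p = 0.0563 by limma), and DUT1, which keeps uracil out of DNA, one of -0.60 ± 0.22 (adjusted p = 0.0767). TSO2, the abundant ribonucleotide reductase small subunit that supplies deoxynucleotides in S phase, stood at 1299 scaled reads in Col-0 and 1198 in tt4-11, with a change of -0.10 ± 0.12. The helicase subunits MCM3, MCM4 and MCM6 had changes of 0.07 ± 0.12, -0.06 ± 0.15 and 0.10 ± 0.15. In the promoter windows of 27 genes of this list, the E2F words TTTCCCGC and TTTGGCGC were present in 37.0%, the octamer in 0, whereas 5.13% of the histone windows and 1.04% of all windows hold those words.

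**Figure D5:**
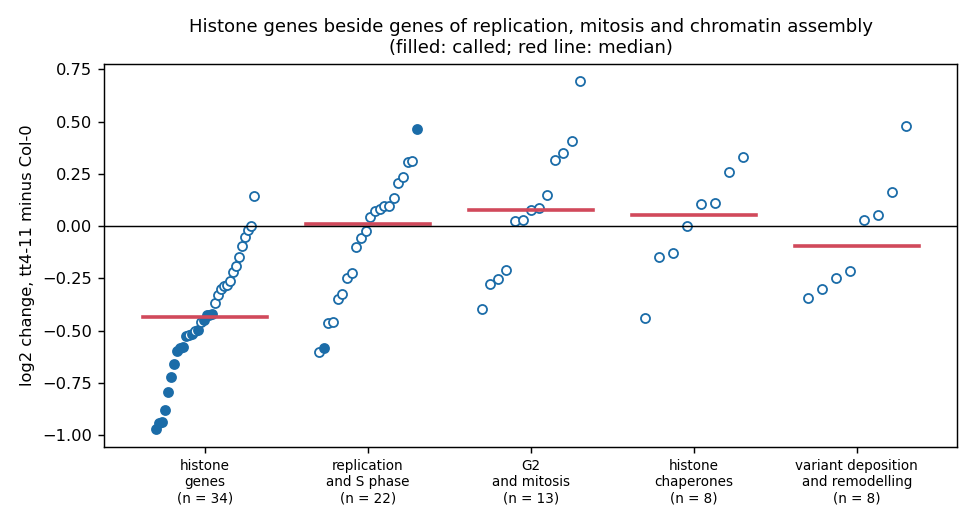
Log2 change, tt4-11 minus Col-0, of the tested histone genes and of the tested genes of 4 lists (points, sorted within a list; filled, called; red line, median). The median is -0.44 for the histone genes and between -0.09 and 0.07 for the 4 lists. The length trend is not removed here. Transcripts of the tested histone genes have a median of 840.5 bases, and those of the lists run from 760 (DUT1) to 8576 bases (TIL1). The part of length in this contrast was not tested.

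No tested gene of mitosis, of the chaperones that escort histones or of the complexes that place variants was called by limma. Of 18 genes of G2 and mitosis 13 were tested, with 0 called in either direction by limma, edgeR or DESeq2, 2 higher and 0 lower at an unadjusted limma p under 0.05, and a median of 0.07. Leaving out 1 library changed this: 1 gene was called lower without Col-0 replicate 4, and 1 higher without Col-0 replicate 2 or without tt4-11 replicate 2. The lowest p-values were those of CYCB2;2, a mitotic cyclin, at 0.69 ± 0.23 (adjusted p = 0.0597 by limma), and CDC20.1, an activator of the anaphase-promoting complex, at 0.41 ± 0.15 (adjusted p = 0.0766). Of 18 histone chaperone genes 8 were tested, with 0 called by the same 3 tools, 1 lower without adjustment, and a median of 0.05. FAS1, FAS2 and HIRA had too few reads to test, with Col-0 means of 4.59, 1.45 and 3.19 scaled reads. They have 2, 3 and 4 annotated models, and nothing is read about their change. NRP2, an H2A and H2B chaperone, had the lowest p with a change of -0.44 ± 0.20 (adjusted p = 0.152 by limma). SGA2, an H3 and H4 chaperone of the ASF1 type, came next with 0.33 ± 0.18 (adjusted p = 0.242 by limma). Of 9 genes for variant deposition and remodelling 8 were tested, 0 called by those tools and 0 without adjustment, with a median of -0.09. ARP4, a subunit shared by several remodelling complexes, had -0.30 ± 0.14 (adjusted p = 0.171 by limma), and SEF, a subunit of the SWR1 complex that exchanges H2A for H2A.Z, had 0.48 ± 0.29 (adjusted p = 0.288 by limma).

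Of 11 further genes of the histone families, among them the centromeric H3 gene HTR12, 6 are in the table and none had enough reads to test; their sum was 11.0 to 16.2 scaled reads in Col-0 and 5.52 to 11.6 in tt4-11.

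Marker genes of tissues were read beside these values. Of 8 meristem genes 6 are in the table and 2 were tested, with 0 called by limma, edgeR or DESeq2. Without adjustment SHR was lower (-0.55 ± 0.22) and SCR higher (0.26 ± 0.12). The list's sum was 298 to 353 scaled reads in Col-0 and 334 to 398 in tt4-11. Most of that sum is SCR, with means of 250 in Col-0 and 301 in tt4-11. The defining meristem genes STM, PLT1, PLT2 and WOX5 each had means under 11 scaled reads. The root list had 0 of 4 called by limma, edgeR or DESeq2 and 1 lower without adjustment. All 4 were below 0, beside 51.2% of all tested genes. EXPA7, an expansin of root hairs, had 17.7 scaled reads in Col-0 and 9.38 in tt4-11 (-0.87 ± 0.30, adjusted p = 0.0691 by limma), and SHV2, needed for root hair growth, had 19.2 and 13.2 (-0.51 ± 0.26, adjusted p = 0.207 by limma). In both, all tt4-11 libraries were below all Col-0 libraries, as in 12.9% of all tested genes. The sum of the root list, 11730 to 13010 against 9646 to 12650, is nearly all PYK10. The green tissue list had 1 of 4 tested genes higher, LHCB3 at 1.34 ± 0.14 (adjusted p = 1.8e-05 by limma), and its sum was 13100 to 15930 against 12380 to 15730. Of the seed and embryo list, 4 of 5 tested genes rose by limma, 4 by edgeR and 0 by DESeq2. Over all tested genes limma called 7.07% higher. By limma these were the storage protein genes CRU2 and SESA3 and the oil body protein genes OLEO1 and OLEO2. In all 4 the lines overlapped. The list's sums were 46.0 to 370 in Col-0 and 171 to 1079 in tt4-11. The storage protein gene CRU3 is at 0 in all Col-0 libraries and in 2 of 3 tt4-11 libraries. CRU3 has 5 annotated models, so its level is not read as absolute. The part of these movements in the histone values was not tested.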

How the data were processed

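PolyA-selected RNA of whole seedlings was sequenced as stranded single reads of 100 bases on an Illumina HiSeq, per the labels. The submitters' processing notes name TopHat2, HISAT2, HTSeq and DESeq2, without versions; a genome build is not given in the sources used here. Per transcript model, the deposited table gives a signal that is the read count scaled per library, and for Col-0 replicate 4 the count itself; dividing by each library's step gave whole reads for 100% of values within 0.01. One repeated row was dropped of 23052, and models were summed per gene. The authors' deposited column of adjusted p-values was used for 1 comparison only. The direction in that comparison came from means of the scaled reads per line, taken here.

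The main test was limma 3.58.1 with trend (R 4.3.3) on log2(scaled reads + 1), after filterByExpr with a minimum count of 10, with 4 Col-0 and 3 tt4-11 libraries and no covariate; because 6 of 7 columns are scaled, edgeR 4.0.16 and DESeq2 1.42.0 on recovered reads were alternatives. The scripts were tested on simulated data. Pairs of libraries differed by more than sampling noise (chi-square over its degrees of freedom 1.93 to 4.93 for pairs of the same line). Pairs of Col-0 replicate 1 with the other Col-0 libraries had 3.93 to 4.93, and all other pairs of the same line 1.93 to 2.66. Symbols, structure and sequences come from RefSeq's TAIR10.1, in which 20731 genes were found and which may not be the authors' build. A count of 0 leaves room for 3 reads. Genes described library by library were the highest of each class, every called member, and the largest and smallest change of each class of 3 or more; of other lists, those called or with the lowest p. Genes of the replication list below those, and motif-bearing genes, were added after their values were seen. The members and lists were chosen with earlier results of these data known.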

Additional observations from a re-analysis of the deposited data

Results flagged for a closer look

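Among 45 histone genes and class sums, 3 had 1 Col-0 library far from the other 3, with a gap that was above Dixon's 95% limit for its share of the range. Chance alone gives about 1 such group in 20. AT1G09200 (H3.1) stood at 368.7 scaled reads in Col-0 replicate 1, a gap of 0.905 of the range, and without that library its direction and call were kept. AT2G28720 (H2B) stood at 65.0 in Col-0 replicate 4, a gap of 0.833, and HTA11 (H2A.Z) at 184.0 in the same library, a gap of 0.843.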

How the results depend on the processing

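No histone gene called lower changed sign under any alternative tried, and edgeR, trimmed-mean factors, no filter and a pseudocount of 0.1 gave the same 17 calls; DESeq2 gave 16 of them. With a replicate block 16 of them and 1665 genes overall were called, HTA6 being lost, but same-numbered libraries did not deviate together (r of 0.058, 0.017 and 0.064, all under 0.1). Leaving out 1 library gave 896 to 1782 called genes of all tested instead of 1811, and 8 to 16 lower histone genes: 12 without Col-0 replicate 3, and 14, 8 and 9 without tt4-11 replicates 2, 3 and 4. At an adjusted p of 0.01, 708 genes and 7 histone genes were called. With the length trend removed, 7 histone genes were called and their median was -0.25; with length and GC trends removed, 1130 genes and 8 histone genes were called and the median was -0.29. The H3.1 change was -0.76 from the sums and -0.58 as the median of its members. Histone genes that changed sign were not called in any setting, and the cause was not tested. AT5G54640 lay between -0.2041 and 0.0596 without 1 library and was at 0.0596 with the replicate block, 0.0933 with length and 0.0468 with length and GC removed. AT4G27230 lay between -0.4621 and 0.0656 without 1 library and was at 0.0554 with length and GC removed. AT5G27670 lay between -0.1189 and 0.0345 without 1 library and was at 0.1686 with length and 0.0867 with length and GC removed. AT3G53650 lay between -0.2297 and 0.0630 without 1 library and was at 0.1299 with length and 0.0343 with length and GC removed. AT3G53730 was at 0.0025 with length removed. AT3G45930 was at -0.0007 by edgeR, -0.0017 by DESeq2 and between -0.1007 and 0.0625 without 1 library. With 2021368 to 2205449 reads in the table per library, 5 histone genes had too few reads there to test. Each of them has 2 or more annotated models, whereas all 28 histone genes with 1 annotated model were tested. Why these 5 hold few reads was not tested.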
